A study of Mus musculus with 3 samples.

Results

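The genes described here are 10 regulators and markers of epithelial identity: the transcription factors Trp63, Grhl1, Grhl2, Grhl3, Ovol1, Klf4 and Klf5, the splicing factors Esrp1 and Esrp2, and the surface protein Epcam. They were chosen by name from the 43280 genes in the count tables, with earlier results of these data known, and all 10 were found once in each table. RNA was sequenced from mouse skeletal mesenchyme at E15.5, described as calvarial in the series, the tissue that forms the flat skull bones. Each of 3 genotypes at beta-catenin (Ctnnb1) gave 1 library. The control was fx/fx, that is, floxed on both chromosomes, without Cre. The library called cKO was fx/fx with Dermo1-Cre and is written here as the deletion library. That called dTF-cKO carried fx/dm and Dermo1-Cre and is written as the dTF library. Dermo1-Cre is a recombinase made in mesenchymal cells from the Twist2 (Dermo1) locus. The labels do not define dm; an allele of that name is known in mouse genetics to keep the adhesive function of beta-catenin and to lack its transcriptional output. The floxed allele is shared by all 3 genotypes, no fx/dm library without Cre was analysed here, and the labels do not say how many embryos went into a library.

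Epithelial cells are held in their state by a small network of regulators. Trp63 encodes p63, the factor of basal cells in stratified epithelia. The grainyhead-like factors Grhl1, Grhl2 and Grhl3 activate genes of cell junctions and of the skin barrier. Ovol1 restrains proliferation and mesenchymal genes as keratinocytes leave the basal layer, and Klf4 is needed for the barrier of the outer epidermis. Klf5 is typical of proliferating basal epithelium and of gut epithelium. Esrp1 and Esrp2 impose epithelial splicing on transcripts such as Fgfr2, and Epcam is an adhesion molecule of simple epithelia and of embryonic and regenerating epithelium. Mesenchyme normally has little of these transcripts, with the exception of Klf4, which is also made by fibroblasts, endothelium and vascular smooth muscle.

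Library totals ran from 2678457 to 3634819 counts. With 1 library per genotype no test of genotype was possible, and each difference is one between libraries. Levels are given as CPM, counts scaled to library size, after TMM scaling. Ratios carry an exact 95% interval that covers counting error only, not the spread between embryos, since each genotype has 1 library. PCR copies cannot be told from separate molecules here, so the interval may be too narrow even for counting error. Ctnnb1 itself was measured at 1026, 745 and 442 CPM in the control, deletion and dTF libraries, and its log2 difference from the control in the dTF library went from -1.22 to 0.19 under the stroma scaling described further on. Markers of the labelled tissue were unevenly present: 10 osteoblast genes summed to 185531 CPM there, 39327 CPM in the deletion library and 8300 CPM in the dTF library. Of those 10, 5 reached 5 CPM in the dTF library. Sex-linked transcripts differed along with genotype, since the Y-linked gene Ddx3y had 0, 161 and 157 counts in the control, deletion and dTF libraries.

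Promoter windows of RefSeq on GRCm38.p6, reaching from 250 bases before to 50 bases after the start site, matched 4 of the 10 genes (Epcam, Grhl1, Grhl3 and Klf4). The window of Epcam is shown because this gene set the Cre-carrying libraries apart most, that of Grhl3 because it was at 0 in the control, and that of Klf4 because it had the highest level of the 10 in the control. Sequences run 5′ to 3′ on the strand of the gene. Capitals mark matches on either strand to CAGGTG, the E-box bound by Zeb and Snail repressors, and to GGGNGTGG, a Klf4 motif.
Epcam, chr17:87635729-87636028, plus strand: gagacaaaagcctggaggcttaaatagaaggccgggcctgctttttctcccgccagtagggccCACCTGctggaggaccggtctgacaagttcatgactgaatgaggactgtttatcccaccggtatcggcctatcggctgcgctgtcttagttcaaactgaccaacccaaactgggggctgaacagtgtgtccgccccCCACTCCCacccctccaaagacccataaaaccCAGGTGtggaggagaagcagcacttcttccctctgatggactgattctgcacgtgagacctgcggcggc
Grhl3, chr4:135573583-135573882, minus strand: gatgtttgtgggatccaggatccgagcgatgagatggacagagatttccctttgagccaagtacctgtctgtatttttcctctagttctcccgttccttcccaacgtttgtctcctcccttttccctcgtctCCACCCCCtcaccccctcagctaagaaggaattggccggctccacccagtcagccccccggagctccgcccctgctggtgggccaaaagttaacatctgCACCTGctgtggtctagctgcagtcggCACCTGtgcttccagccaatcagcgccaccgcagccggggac
Klf4, chr4:55532426-55532725, minus strand: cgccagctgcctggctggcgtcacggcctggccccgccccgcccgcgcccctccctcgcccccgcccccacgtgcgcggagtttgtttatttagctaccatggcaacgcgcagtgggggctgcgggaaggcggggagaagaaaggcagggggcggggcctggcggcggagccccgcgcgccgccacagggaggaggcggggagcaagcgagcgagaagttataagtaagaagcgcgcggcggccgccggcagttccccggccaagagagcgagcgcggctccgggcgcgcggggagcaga

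The Epcam window held CAGGTG at 2 places, starting 19 and 187 bases before the start site, and GGGNGTGG at 1 place, on the opposite strand. The Grhl3 window also held the E-box at 2 places, starting 19 bases before and 8 bases after the start, and GGGNGTGG at 1 place. Of all 32851 windows of this length, 20.2% held CAGGTG and 17.6% held GGGNGTGG. The Klf4 window and both windows of Grhl1 held neither. The grainyhead motif AACCGGTT, its form with an open base AACNGGTT, which includes AACCGGTT, and the Ovol1 motif CCGTTA were found in none of the 5 windows, and they stood in 0.146%, 2.09% and 2.76% of all windows. These letters describe the windows and no binding was measured.

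The control had very little of most of these transcripts. Trp63 and Ovol1 had 2 counts each there, Grhl1 had 10, Grhl2 had 7, Esrp2 had 6 and Grhl3 had 0, and none of these 6 genes reached 5 CPM. The 4 others were Esrp1 at 6.71 CPM, Klf5 at 6.15 CPM, Epcam at 14.5 CPM and Klf4 at 168 CPM. All 10 passed the expression floor of 5 CPM in the mean of the libraries, 6 of them only through the Cre-carrying libraries, so for those a higher value there was built into the filter. The 10 genes summed to 203 CPM in the control, of which Klf4 was most, and to 1030 CPM in the deletion library and 1043 CPM in the dTF library. The near-equal sums in the Cre-carrying libraries hold after TMM scaling and not under the stroma or epithelial scaling described further on. They hid unlike mixtures, described gene by gene in the following paragraphs.

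**Figure D1:**
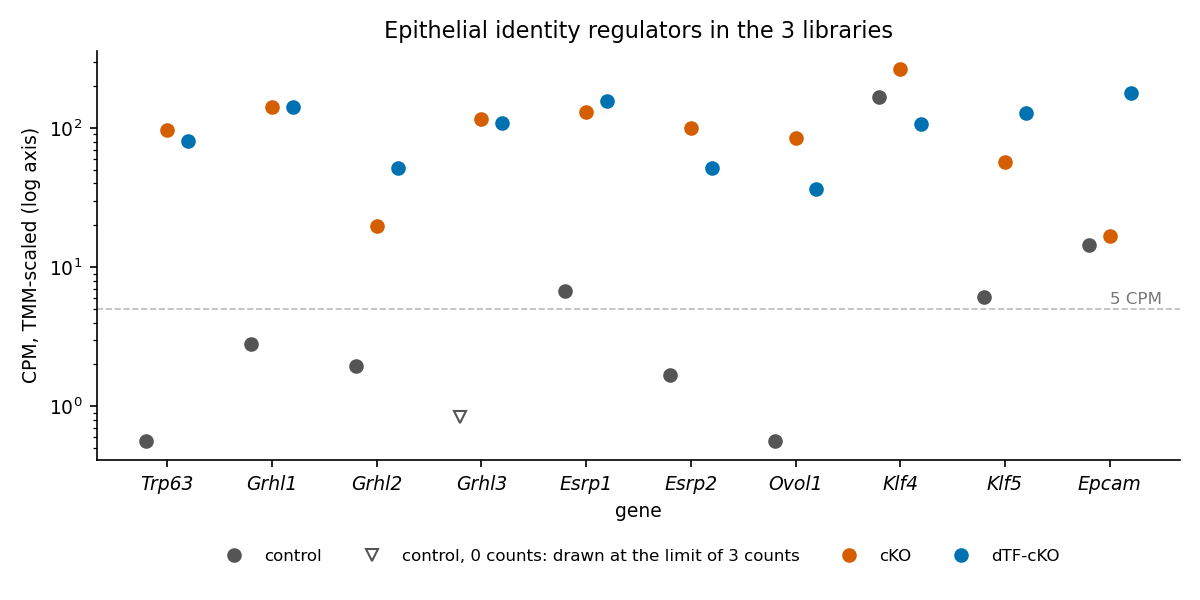
TMM-scaled CPM (log axis) of the 10 genes, with a point for each library and an open triangle where a gene had 0 counts, drawn at the CPM of 3 counts. The control points of 6 genes lie under the 5 CPM line, whereas Klf4 stands at 168 CPM in the control, and Epcam stands at 14.5 CPM in the control and 16.6 CPM in the deletion library but at 179 CPM in the dTF library.

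In the deletion library, 8 of the 10 stood at least 2-fold above the control and 0 at least 2-fold below it. Over all 12127 genes that passed the floor, 9.66% were at least 2-fold higher and 6.78% at least 2-fold lower. In the dTF library, 9 were at least 2-fold higher than in the control and 0 lower, against 19.5% and 20.9% of all genes that passed the floor. The genes were chosen knowing these contrasts, which share the control library, so the counts are a description. The median log2 difference of the 10 was 4.76 in the deletion library and 4.46 in the dTF library, beside 0.06 and 0.06 over all genes that passed the floor. The counts of 8 and 9 were the same under every scaling run, and 1 gene, Klf4, was at least 2-fold lower in the dTF library when the totals left out the 20 most abundant genes.

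Trp63, the basal cell factor (chromosome 16, 25683763 to 25892102, plus strand; positions are those of mm10), had 2, 275 and 225 counts in the control, deletion and dTF libraries, or 0.559, 97.3 and 80.4 CPM. Both Cre-carrying libraries stood far above the control. The ratio to the control was 174 in the deletion library (47.7 to 1443) and 144 in the dTF library (39.3 to 1194). From the deletion library to the dTF library it was 0.826 (0.690 to 0.989), with a log2 difference of -0.27 that became 1.42 under the stroma scaling. Counts per gene do not separate the long TAp63 form from the short deltaNp63 form, which is the one of basal keratinocytes.

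The 3 grainyhead-like genes did not move alike. Grhl1 (chromosome 12, 24572283 to 24617391, plus strand) had 10, 398 and 395 counts, or 2.80, 141 and 141 CPM. Its ratio to the control was 50.3 in the deletion library (27.1 to 106) and 50.5 in the dTF library (27.1 to 106). Grhl3 (chromosome 4, 135541888 to 135573630, minus strand), the member tied most closely to barrier formation and eyelid and neural tube closure, had 0, 330 and 307 counts. Its 117 CPM in the deletion library and 110 CPM in the dTF library were at least 139-fold and at least 131-fold higher than the limit of 3 counts in the control, 0.839 CPM. Neither gene was distinguishable between the Cre-carrying libraries by counting error after TMM scaling, at ratios of 1.002 (0.870 to 1.15) for Grhl1 and 0.940 (0.802 to 1.10) for Grhl3. Over all scalings and prior counts run, this log2 difference went from -1.11 to 1.69 for Grhl1 and from -1.20 to 1.60 for Grhl3.

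Grhl2 (chromosome 15, 37233036 to 37363569, plus strand), the member most tied to simple epithelia and to Cdh1 and claudin genes, had 7, 56 and 144 counts, or 1.96, 19.8 and 51.5 CPM. The levels were ordered control, deletion, dTF, and the counting interval of each ratio between them excluded 1. It was 10.1-fold (4.60 to 26.3) and 26.3-fold (12.4 to 66.5) above the control in the deletion and dTF libraries, and 2.60-fold higher in the dTF library than in the deletion library (1.90 to 3.60). Grhl2 made up 7.14% of the counts of the 3 genes in the deletion library (exact 95% interval 5.44% to 9.18%) and 17.0% in the dTF library (14.5% to 19.7%). These shares come from within a library and do not depend on scaling. Per kilobase of exon, Grhl3 exceeded Grhl2 by 18.2-fold in the deletion library (13.7 to 24.6) and by 6.58-fold in the dTF library (5.38 to 8.08).

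The splicing factors Esrp1 and Esrp2 were both higher than in the control but in a different balance. Esrp1 (chromosome 4, 11331933 to 11386783, minus strand) had 24, 371 and 442 counts, or 6.71, 131 and 158 CPM. It was 19.5-fold higher in the deletion library (12.9 to 30.9) and 23.5-fold higher in the dTF library (15.6 to 37.1) than in the control. Esrp2 (chromosome 8, 106130319 to 106136974, minus strand) had 6, 282 and 144 counts, or 1.68, 99.8 and 51.5 CPM, and was 59.4-fold (27.0 to 163) and 30.7-fold (13.7 to 84.9) higher. Per length, Esrp1 and Esrp2 stood at about the same level in the deletion library, at a ratio of 0.906 (0.774 to 1.06). In the dTF library Esrp1 was 2.11-fold above Esrp2 per length (1.75 to 2.57). Esrp2 was 1.94-fold lower in the dTF library than in the deletion library (1.58 to 2.39), a log2 difference of -0.95 that turned to 0.74 under the stroma scaling, and Esrp1 was 1.20-fold higher (1.05 to 1.39), a log2 difference of 0.27 that turned to -0.84 under the epithelial scaling.

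Ovol1 (chromosome 19, 5549136 to 5560646, minus strand), the zinc finger factor of keratinocytes leaving the basal layer, had 2, 242 and 102 counts, or 0.559, 85.6 and 36.4 CPM. Its ratio to the control was 153 in the deletion library (41.9 to 1271) and 65.1 in the dTF library (17.6 to 545). It was 2.35-fold lower in the dTF library than in the deletion library (1.86 to 2.99), and its log2 difference of -1.22 became 0.47 under the stroma scaling. Per length, Ovol1 was 2.12-fold above Trp63 in the deletion library (1.77 to 2.53) and 1.09-fold in the dTF library (0.854 to 1.38), a ratio that depends on both genes. Annotated genes on the opposite strand cover part of its exons, among them the pseudogene Gm31166 with 690 shared bases, 19.8% of the exon length of Ovol1, and the strand setting of the counting is not given in the sources used here.

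Klf4 (chromosome 4, 55527143 to 55532466, minus strand) was the gene of this set that the control had most of. It had 600, 748 and 298 counts, or 168, 265 and 106 CPM. The deletion library was highest and the dTF library lowest. It was 1.58-fold higher in the deletion library than in the control (1.41 to 1.76) and 1.58-fold lower in the dTF library than in the control (1.37 to 1.82), and the second direction turned under the stroma scaling, where the log2 difference was 0.75. Against the deletion library it was 2.49-fold lower in the dTF library (2.17 to 2.85), with a log2 difference of -1.31 that became 0.38 under the stroma scaling. Endothelial markers, whose cells also express Klf4, were ordered in the same way in summed CPM after TMM scaling. Their 10 genes summed to 821 CPM in the control, 1219 CPM in the deletion library and 228 CPM in the dTF library, and none was at 0 in any library. Of the 10, 9 were at least 2-fold lower in the dTF library than in the deletion library, with a median log2 difference of -2.16. Under the stroma scaling, which uses these genes, 4 were lower and the median was -0.47. The most abundant were Cdh5, Vwf and Pecam1, at 278, 241 and 176 CPM in the deletion library and 35.7, 14.6 and 50.7 CPM in the dTF library. The order was not particular to endothelium, since 9 genes of macrophages and leukocytes summed to 274, 423 and 263 CPM. Suprabasal epidermal genes, at 11.7, 15210 and 371 CPM, were also highest in the deletion library but lowest in the control. Other lists were ordered otherwise: 9 genes of smooth muscle and pericytes summed to 937, 1092 and 1591 CPM, highest in the dTF library. The dermal list summed to 12673, 11216 and 4649 CPM, highest in the control. The part of these cells in the Klf4 counts was not tested.

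Klf5 (chromosome 14, 99298691 to 99315036, plus strand) went in the other direction from Klf4 between the Cre-carrying libraries. It had 22, 162 and 360 counts, or 6.15, 57.3 and 129 CPM, with the dTF library highest. It stood 9.31-fold (5.94 to 15.3) and 20.9-fold (13.6 to 33.8) above the control in the deletion and dTF libraries, and was 2.24-fold higher in the dTF library than in the deletion library (1.86 to 2.72). Klf4 exceeded Klf5 per length by 46.5-fold in the control (30.4 to 74.8), by 7.88-fold in the deletion library (6.64 to 9.39) and by 1.41-fold in the dTF library (1.21 to 1.65). These ratios within a library do not change with scaling. Of 10 other Klf genes that passed the floor, none was at least 2-fold higher in the deletion library than in the control and 1 was lower. In the dTF library 4 were higher than in the control and 2 lower, which became 7 and 2 under the stroma scaling. The most abundant of them, Klf6, Klf13 and Klf10, stood at 63.8, 83.1 and 28.3 CPM in the control and at 245, 43.9 and 114 CPM in the dTF library.

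Epcam (chromosome 17, 87635979 to 87651129, plus strand) set the Cre-carrying libraries apart most. It had 52, 47 and 501 counts, or 14.5, 16.6 and 179 CPM. The control and the deletion library were not distinguishable by counting error, at a ratio of 1.14 (0.754 to 1.73) and a log2 difference of 0.19 that was -0.06 under the stroma scaling. The dTF library was 12.3-fold higher than the control (9.24 to 16.7) and 10.8-fold higher than the deletion library (7.97 to 14.8). Its log2 difference between the Cre-carrying libraries, 3.38, stayed between 2.27 and 5.07 under all scalings and prior counts run. Within a library, Epcam per length was 0.653 of Trp63 in the deletion library (0.469 to 0.893) and 8.51-fold above Trp63 in the dTF library (7.26 to 10.01). Against Klf4 it went from 0.0873 in the deletion library (0.0636 to 0.117) to 2.34 in the dTF library (2.02 to 2.70).

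**Figure D2:**
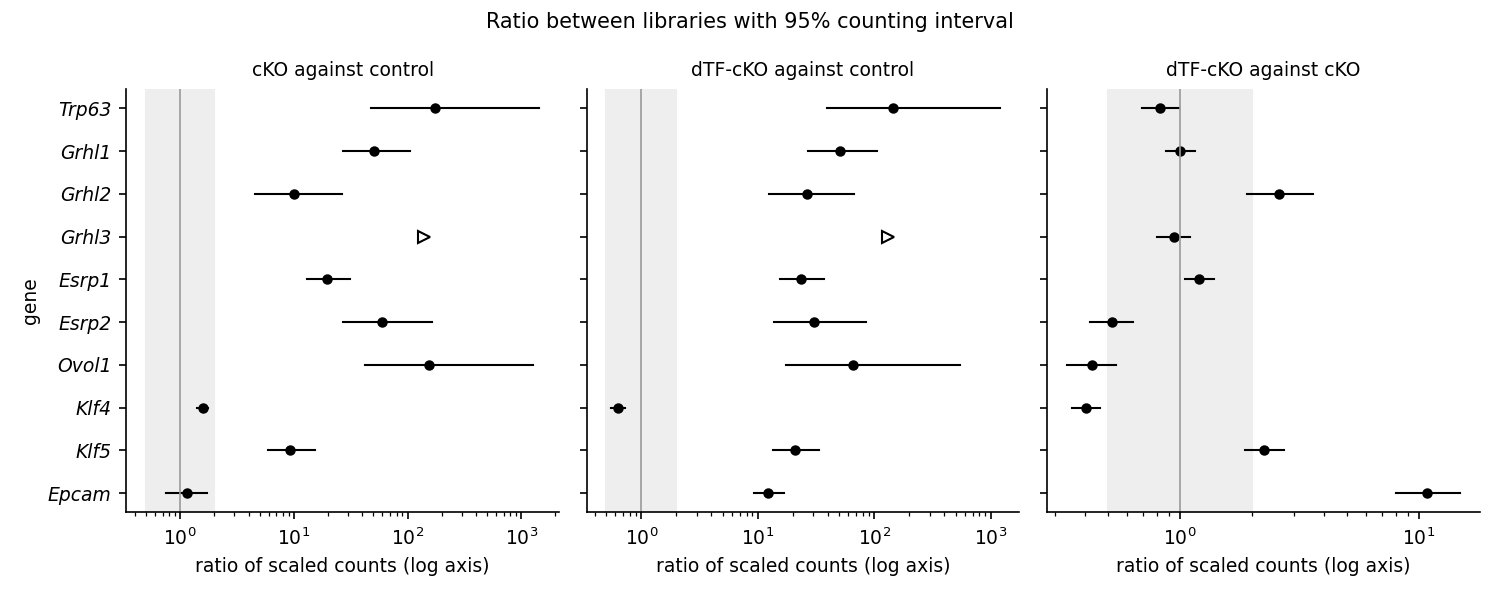
Ratios of TMM-scaled counts (log axis) for the 3 library pairs, with exact 95% counting intervals as bars. The open triangle for Grhl3 marks its ratio to a limit of 3 counts in the control, and the grey band is the range under 2-fold. Against the control, Klf4 lies within the band in both panels and Epcam in the first; in the dTF library against the deletion library, Epcam, Grhl2 and Klf5 lie to its right and Ovol1 and Klf4 to its left, the last 2 turning sign under the stroma scaling.

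In cells where Dermo1-Cre acted, the comparison of the dTF library with the deletion library sets the dm allele left after recombination against a recombined floxed allele on both chromosomes. In cells where it did not act, the comparison is of fx/dm with fx/fx, both unrecombined. Whether Cre acted in the cells that made these transcripts was not measured. Among the 10, Epcam, Grhl2 and Klf5 (3 genes) exceeded their level in the deletion library by 2-fold or more, 2 were at least 2-fold lower (Klf4 and Ovol1) and 5 within 2-fold. Among all genes that passed the floor, 14.5% were at least 2-fold higher and 20.5% at least 2-fold lower, and the contrast was known when the genes were chosen. The median log2 difference of the 10 was -0.04, beside 0.01 over all genes that passed the floor. These calls depended on the scaling. The stroma scaling sets to 0 the median of 38 genes (dermal, meningeal, endothelial, and of smooth muscle and pericytes). Under it, all genes moved up by 1.69, and 7 of the 10 were at least 2-fold higher and 0 lower. The epithelial scaling, chosen after the data were seen, does the same with 25 grainyhead-linked and p63-linked genes. With it, all moved down by 1.11, and 1 was higher and 6 lower. Each of these scalings moves every gene alike, and the share of all genes called under them was not counted. The changed counts, here and for the gene lists, are therefore not a result about the genes counted. Only Epcam stayed at least 2-fold higher under every scaling. The log2 differences of Grhl2 and Klf5 fell to 0.24 and 0.05 under the epithelial scaling.

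**Figure D3:**
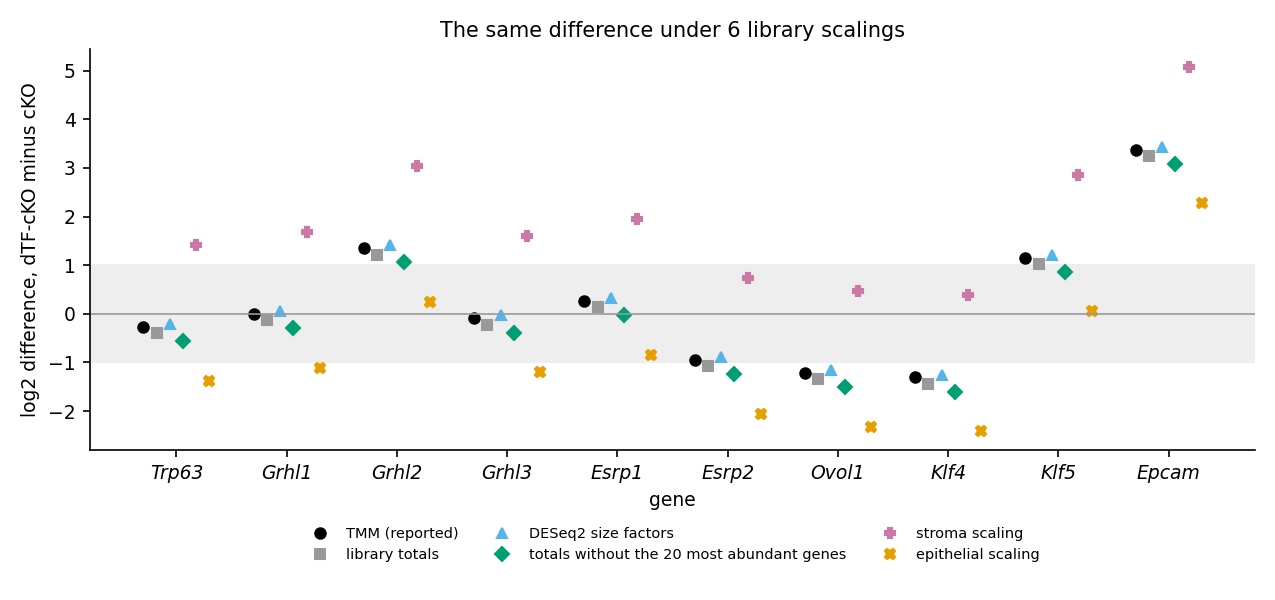
Log2 difference of each gene, dTF-cKO minus cKO, under TMM and 5 other scalings; the grey band is the range under 2-fold. The stroma scaling lifts all 10 genes by 1.69 and the epithelial scaling lowers them by 1.11, so that Klf4 and Ovol1 change sign under the stroma scaling while Epcam stays above 2.

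Levels per kilobase of exon showed how the mixture differed. In the control, Klf4 led at 55.05 CPM per kb, 8.31-fold above Epcam (6.25 to 11.3), and from the level of Klf5 downward no neighbours in the order were distinguishable by counting error. In the deletion library, Klf4 led at 86.8 CPM per kb, followed by Grhl3 at 41.9 and Grhl1 at 25.4. Grhl1, Ovol1, Esrp2 and Esrp1 formed a run between 25.4 and 20.8 CPM per kb whose neighbours were not distinguishable. Epcam, at 7.57, and Grhl2, at 2.30, were the lowest. In the dTF library, Epcam led at 81.6 CPM per kb, 2.07-fold above Grhl3 at 39.3 (1.80 to 2.40). Grhl3 and Klf4, at 34.9, were not distinguishable there, nor were the neighbours in the run Grhl1, Esrp1 and Klf5, between 25.5 and 24.7, or in the run Esrp2, Ovol1 and Trp63, between 11.9 and 9.58. Grhl2 was again the lowest, at 5.97 CPM per kb.

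**Figure D4:**
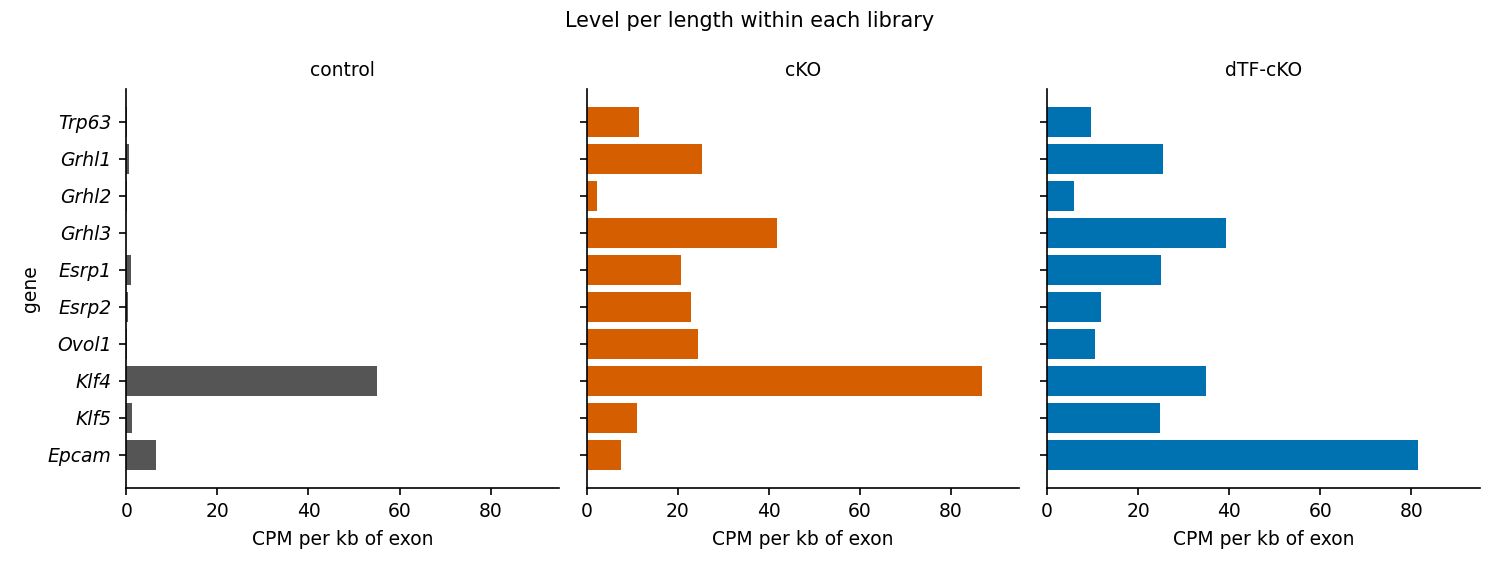
Level per length (CPM per kb of exon) of each gene within each library, on the same linear axis. Klf4 has the longest bar in the control and the deletion library, at 55.05 and 86.8, and Epcam in the dTF library, at 81.6.

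The 10 genes were also set against keratin counts, which gives ratios that do not depend on library scaling. For 7 of the 10 genes, Epcam not among them, the direction turned with the keratins chosen. Krt5 and Krt14 together had 8806 counts in the deletion library and 18451 in the dTF library. Per 1000 of these counts, Epcam had 5.34 counts in the deletion library and 27.2 in the dTF library, which was 5.09-fold more (3.77 to 7.02). Grhl2 and Klf5 kept pace with the basal keratins, at ratios of 1.23 (0.895 to 1.70) and 1.06 (0.879 to 1.29). The 7 other genes were lower per basal keratin count in the dTF library. Trp63, the factor that drives these keratins, went from 31.2 to 12.2 per 1000, a ratio of 0.390 (0.326 to 0.467). Esrp1, Grhl1 and Grhl3 had ratios of 0.569 (0.494 to 0.655), 0.474 (0.411 to 0.546) and 0.444 (0.379 to 0.520). Those of Esrp2, Ovol1 and Klf4 were 0.244 (0.198 to 0.299), 0.201 (0.158 to 0.255) and 0.190 (0.166 to 0.218). Against the suprabasal keratins Krt1 and Krt10 instead, all 10 were higher per keratin count in the dTF library, from 14.4-fold for Klf4 (12.5 to 16.5) and 15.2-fold for Ovol1 (11.96 to 19.3) to 385-fold for Epcam (285 to 531).

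Marker genes of other epithelial layers moved with these differences. In the list of periderm and simple epithelium, all 7 keratins were at least 2-fold higher than in the control in both Cre-carrying libraries, and 6 of 7 were at least 2-fold higher in the dTF library than in the deletion library. The 7 summed to 74.7 CPM in the control, 1050 CPM in the deletion library and 8932 CPM in the dTF library, with none at 0. Krt7, Krt19 and Krt8, keratins of simple epithelia, had 663, 545 and 116 counts in the deletion library and 8254, 4463 and 4159 in the dTF library. The suprabasal list went the other way: its 5 genes summed to 11.7, 15210 and 371 CPM, and 5 of 5 were at least 2-fold lower in the dTF library than in the deletion library. Krt10 and Krt1, keratins of the layers above the basal one, had 19639 and 16591 counts in the deletion library and 901 and 102 in the dTF library. Both list medians kept their sign under every scaling. Of 12 measured cornified envelope genes, 6 were at least 2-fold lower in the dTF library than in the deletion library and 3 higher, with a median of -1.20 that became 0.49 under the stroma scaling. Loricrin (Lor), Dmkn and Hrnr had 7210, 4960 and 4270 counts in the deletion library and 67, 1699 and 14 in the dTF library. How much the mix of epithelial layers in each library contributed to the levels of the 10 genes was not tested, and in bulk RNA fewer cells of a type and less RNA per cell cannot be told apart.

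Genes tied to these regulators in textbook accounts were described from lists that partly overlap, since Prss8 and St14, for example, stand in 2 of them. In the deletion library, 9 of the 11 measured grainyhead-linked genes exceeded the control by at least 2-fold and 0 were lower; in the dTF library 10 were higher and 1 lower. Between the Cre-carrying libraries 7 were higher in the dTF library and 2 lower, and the median of 1.99 stayed positive under every scaling. Under the epithelial scaling 5 were higher and 4 lower. That scaling uses these genes together with the p63-linked ones, so it is no independent check of their sign. Cldn4, a tight junction claudin, had 8, 288 and 3677 counts in the control, deletion and dTF libraries. Cdh1, the epithelial cadherin, had 130, 584 and 2502, and Pvrl4, which encodes the adhesion molecule nectin-4, had 11, 381 and 1506. Not all of the list had this order: Rab25 had 12, 294 and 306 counts, Tgm1 3, 570 and 446, and Dsg1a 0, 577 and 10, these 3 being named after their values were seen.

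Of 14 measured p63-linked genes of basal cells and their matrix contacts, 13 were at least 2-fold higher in the deletion library than in the control and 12 in the dTF library, with 0 lower in either. Between the Cre-carrying libraries 6 were higher in the dTF library and 2 lower, with a median of 0.88 that was -0.23 under the epithelial scaling, which uses these genes. The counts became 12 and 0 under the stroma scaling and 2 and 3 under the epithelial scaling. Krt5, Krt14 and the desmosomal protein gene Perp had 5759, 3047 and 2228 counts in the deletion library and 12663, 5788 and 2788 in the dTF library, while Trp63 itself had 275 and 225. Among relatives of Trp63 and Ovol1, Trp53 stood at 87.3, 100.5 and 183 CPM in the control, deletion and dTF libraries. Trp73 had 2, 28 and 3 counts, and Ovol2, which represses mesenchymal genes in epithelia, had 0, 7 and 8.

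Genes listed as partners of Epcam were higher in the dTF library too. All 5 members of that list stood at least 2-fold higher in the dTF library than in the deletion library. The median of 2.15 stayed positive under every scaling. Under the epithelial scaling, which uses St14 and Prss8 of this list, 3 of 5 were at least 2-fold higher. Spint2, a protease inhibitor, had 62, 363 and 1605 counts and St14, the membrane protease matriptase, 30, 118 and 645. Cldn7, a claudin that binds Epcam at the membrane, was named after its values were seen because its pattern was like that of Epcam: it had 8, 1 and 122 counts, and was 123-fold higher in the dTF library than in the deletion library (21.7 to 4907).

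Of 18 measured partner transcription factors of epithelia, 14 were at least 2-fold higher in the deletion library than in the control and 1 lower, and 13 were higher and 2 lower in the dTF library. Against the deletion library, 3 were higher in the dTF library, among them Elf3 and Tfap2c, and 4 lower (Ehf, Gata3, Cebpa and Lhx2), the names being given after their values were seen. Elf3, an ETS factor of simple epithelia, had 23, 29 and 1042 counts and resembled Epcam in being near the control in the deletion library. Zfp750, a factor of terminal epidermal differentiation, had 5, 399 and 523 counts. These counts changed with the scaling, to 13 higher and 1 lower under the stroma scaling and to 2 higher and 8 lower under the epithelial scaling, and the list's median, 0.33, took both signs.

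**Figure D5:**
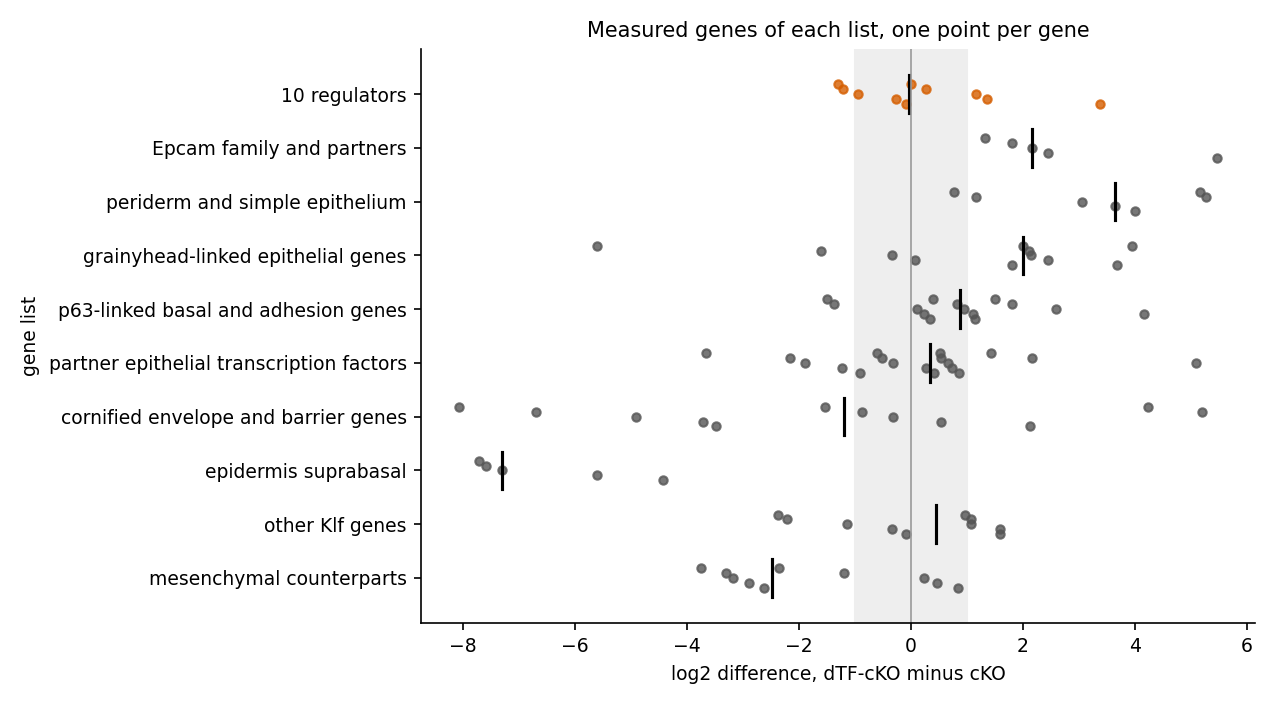
Log2 difference, dTF-cKO minus cKO, of each measured gene (points) in the set of 10 and in 9 gene lists, with the list median as a bar and the range under 2-fold in grey. The medians of the Epcam partners (2.15), the periderm and simple epithelium keratins (3.65) and the grainyhead-linked genes (1.99) lie to the right under every scaling. Those of the suprabasal genes (-7.31) and mesenchymal counterparts (-2.49) lie to the left under every scaling. The medians of the 4 other lists change sign under some scaling. The epithelial scaling itself uses the grainyhead-linked and p63-linked genes.

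The total level of transcripts known to have Esrp-dependent isoforms depended on the scaling in the dTF library. Of 7, none was at least 2-fold different in the deletion library against the control or between the Cre-carrying libraries, and 1, Ctnnd1, was at least 2-fold higher in the dTF library than in the control. Under the stroma scaling, 6 of the 7 were higher in the dTF library than in the control (median 1.96) and 6 than in the deletion library (median 1.94). That scaling moved all genes up alike, by 1.41 against the control and by 1.69 against the deletion library. The share of all genes called under it was not counted, so its counts in this paragraph are not a result about these genes. Fgfr2, Cd44 and Enah stood at 235, 108 and 109 CPM in the control, 220, 134 and 129 CPM in the deletion library and 168, 165 and 148 CPM in the dTF library. Counts per gene hold no isoforms, so splicing was not measured. Among 8 other splicing factors, 1 was higher and 1 lower in the dTF library than in the control, and 5 were higher and 0 lower under the stroma scaling. Ptbp1, Rbfox2 and Srsf1, the most abundant, stood at 428, 232 and 184 CPM in the control and 439, 83.6 and 134 CPM in the dTF library.

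Mesenchymal genes, among them repressors that oppose the epithelial network, were mostly lower in the dTF library. Of 10, 1 was at least 2-fold lower in the deletion library than in the control and 7 in the dTF library, with medians of -0.51 and -2.83, both negative under every scaling. Over all genes that passed the floor, 6.78% and 20.9% were at least 2-fold lower. Under the stroma scaling, 6 were lower and 2 higher in the dTF library than in the control, with a median of -1.43. The 7 that were lower in the dTF library after TMM scaling included the repressors Zeb1, Zeb2, Snai1 and Snai2, named after their values were seen. Zeb1 had 305, 238 and 30 counts in the control, deletion and dTF libraries and Zeb2 had 434, 313 and 49. Fn1, Vim and Cdh11, the most abundant of the list, stood at 4402, 1939 and 663 CPM in the control, at 2207, 1248 and 493 CPM in the deletion library and at 3032, 2235 and 36.1 CPM in the dTF library. In the deletion library Zeb1 and Zeb2 were within 2-fold of the control, and 8 of the 10 epithelial regulators were at least 2-fold above it. Whether the levels of these repressors bear on those of the 10 genes was not tested.

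Most markers of epithelia from other organs were under the floor. Of 12, 1 passed the floor, Krt13, a keratin of oral and other moist stratified epithelia, with 7, 139 and 285 counts. The lineage factors Nkx2-1, Cdx2 and Foxa2 were at 0 in all 3 libraries, as were Sftpc and Cdh16. The list of melanocytes, pigment cells of the skin, summed to 33.0, 161 and 75.7 CPM, with Mlana at 0 in the control and dTF libraries. The 8 hair follicle genes summed to 85.9, 74.6 and 70.03 CPM. Those at 0 were Shh, Krt25, Krt71 and Foxe1 in the control and Krt25, Krt71 and Foxe1 in the deletion library. In the dTF library Shh and Lhx2 were at 0. The 9 skeletal muscle genes summed to 1332, 191 and 7.86 CPM, with Myog, Myod1 and Ckm at 0 in the dTF library, and the 8 genes of neurons and glia to 197, 109 and 47.5 CPM. Those of macrophages and leukocytes (9 genes) summed to 274, 423 and 263 CPM and of red blood cells (5 genes) to 4048, 3774 and 10780 CPM. The 5 genes of germ and stem cells were under the floor, with Dazl and Pou5f1 at 0 in all 3 libraries. The part of these cell types in the levels of the 10 genes was not tested.

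For each of the 10 genes, the nearest genes were sought among 11215 genes that passed the floor, by the Euclidean distance of log2 CPM centred on the mean of the 3 libraries. With 3 libraries many genes lie close by, and likeness says nothing of function: the genes nearest to Trp63 were Crct1 (distance 0.16), a gene of cornified epidermis, the Y-linked Ddx3y (0.27) and Aldh3b2 (0.30). Grhl1 was nearest to Nipal4 (0.06), Lad1 (0.13) and Pdzk1ip1 (0.17), and Grhl3 to the desmosomal plakophilin gene Pkp3 (0.17), to Sbsn (0.22) and to Pkp1 (0.23). Grhl2 lay nearest to Cgn (0.05), which encodes the tight junction protein cingulin, to Rassf7 (0.07) and to another gene of the set, Klf5 (0.14). Klf5 in turn lay nearest to Rassf7 (0.07), Fam83g (0.09) and Map7 (0.12). Esrp1 was nearest to the claudin gene Cldn1 (0.02), Sh3rf2 (0.07) and Lypd6b (0.11), and Esrp2 to Elovl4 (0.10), an elongase of skin barrier lipids, Anxa9 (0.14) and Ceacam19 (0.31).

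The genes nearest to Ovol1 included Prom2 (0.06) and Cyp4f39 (0.23). The neighbours of Klf4 were Dnase1l1 (0.04), Col4a1 (0.04), a basement membrane collagen gene with 4206, 5136 and 2004 counts, and Slc25a15 (0.06). Epcam was nearest to H2-K1 (0.15), an MHC class I gene with 72, 72 and 661 counts, Cystm1 (0.15) and P2ry2 (0.16). Within the set, the closest pair was Grhl2 and Klf5 at 0.14, followed by Esrp2 and Ovol1 at 0.52 and by Grhl1 and Trp63 at 0.71, and the most distant was Grhl3 and Klf4 at 6.14.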

How the data were processed

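RNA was sequenced from 3 libraries, 1 per genotype. The authors deposited raw read counts per gene symbol, whole numbers with no normalisation, per the file headers; mm10 is the build named in the submitters' processing notes, and for the aligner, counter, annotation and strandedness the entry is: not given in the sources used here. Genes were matched by symbol to GENCODE vM21 (GRCm38) for positions and exon lengths. Counts were scaled with TMM in edgeR 4.0.16 under R 4.3.3, with a prior count of 2 for log2 CPM. A gene passed the floor at a mean of 5 CPM and was called higher or lower at a 2-fold difference. Ratios have exact conditional (Clopper-Pearson) 95% intervals (scipy 1.17.1), and per-length ratios are divided by exon length; a count of 0 was bounded by 3 counts. With no replicates, no test was made. Code was tested on simulated data. The 10 genes, the 26 gene lists and the comparisons were chosen with earlier results of these data known. Besides the 10 genes and Ctnnb1, the text names the 3 most abundant genes of each list it describes and the 3 genes nearest to each of the 10; others are said to be named after their values were seen. Some genes that this rule names are not reported here. Of the 226 list genes, 1 was found under another symbol and 1 was not found. Scalings to library totals, by DESeq2 1.42.0 size factors, without the 20 most abundant genes, to stroma and to epithelial genes were tried, with other prior counts, floors and size rules.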

Additional observations from a re-analysis of the deposited data

Results flagged for a closer look

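Klf4 stood on opposite sides of the control in the Cre-carrying libraries, above it in the deletion library and below it in the dTF library, with both counting intervals off 1. The log2 difference between the dTF library and the deletion library was -1.31. With 1 library per genotype the difference was not tested, both comparisons share the control library, and under the stroma scaling Klf4 was above the control in both.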

How the results depend on the processing

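The counts of genes at least 2-fold above the control, 8 in the deletion library and 9 in the dTF library, stayed within 1.5 times of these values under the 11 alternatives run on them. Between the Cre-carrying libraries, the 3 higher and 2 lower genes became 7 and 0 under the stroma scaling, 1 and 0 with a 3-fold size rule, and 1 and 6 under the epithelial scaling, which was chosen after the data were seen. The shares of all genes called under these settings were not counted. Under the stroma scaling the differences of Klf4 and Ovol1 reversed to 0.38 and 0.47. Of the 10 genes, 9 kept their sign against the control in each comparison, the exceptions being Epcam in the deletion library and Klf4 in the dTF library, and 3 kept it between the Cre-carrying libraries. No paired analysis was possible because each genotype has 1 library, which also left no replicate to leave out. Depth limits the control values, where 6 of the 10 genes had 10 counts or fewer.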
